A study of Homo sapiens with 8 samples.

Results

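The genes described here are 10 human amino acid transporters, namely SLC7A11, SLC7A7, SLC7A5, SLC7A1, SLC3A2, SLC1A4, SLC1A5, SLC38A1, SLC38A2 and SLC6A9, taken by symbol from a table of 24462 genes, of which 12577 passed a filter on low counts. All 10 members passed that filter, and each stood on 1 row of the deposited table. SLC7A11 and SLC7A7 were selected on their fold changes between these same groups, because earlier results put them on opposite sides of 0, so their values in this comparison are described without a test. The other 8 were added as relatives of these carriers, but with earlier results of these data known. The 4 libraries of the first group came from HepG2 cells that overexpress EDN1, the precursor of the secreted peptide endothelin-1, and the other 4 came from mock HepG2 cells. HepG2 is an established line from a human liver tumour, and both groups were grown in the same serum-containing medium with no further treatment. The labels name neither the vector nor the promoter behind the overexpression, nor whether the libraries of a group are separate cultures or clones, and a p-value here reflects only how much these libraries vary, which may be technical.

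Amino acids cross membranes through carriers of the solute carrier families. Some light chains of the SLC7 family reach the cell surface only in a dimer with SLC3A2, the CD98 heavy chain. Several of these genes are known targets of ATF4, a factor that is translated when amino acids run short, and SLC7A11 is also a target of the antioxidant factor NRF2. Carriers of these families supply cells with glutamine for energy, cystine for glutathione, and leucine and arginine as signals to the growth kinase mTORC1.

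The letters of the start sites are shown first, since short elements near the start are known to carry the nutrient response of several such genes. RefSeq start regions (build GRCh38.p14, 250 bases before and 50 after each start) were matched by symbol for 9 of the 10 members, with 17 start regions between them. SLC7A11 was not matched. The core of the amino acid response element bound by ATF4, TGATGNAA, was searched on both strands, as was the core of the antioxidant response element, TGACNNNGC, and no match of one overlapped a match of the other in these regions. Both cores were chosen after the sequences had been seen. The first core occurred in 5 of the 17 member regions (29.4%), against 1270 of 35116 regions in the whole table (3.62%). Those 5 regions belong to SLC1A4 (chr2:64989381-64989410, plus strand, reading TTGCATCA, the core on the other strand), SLC1A5 (chr19:46784893-46784922, minus strand), SLC38A1 (chr12:46266502-46266531, minus strand), SLC7A1 (chr13:29595663-29595692, minus strand) and SLC3A2 (chr11:62881719-62881748, plus strand, reading TTACATCA, again the other strand). Each is printed 5′ to 3′ on the strand of its gene as 30 bases, with the matched core in capitals.
SLC1A4: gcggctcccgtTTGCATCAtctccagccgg
SLC1A5: gaggaagtggcTGATGCAAgctgtccaggg
SLC38A1: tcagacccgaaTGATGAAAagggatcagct
SLC7A1: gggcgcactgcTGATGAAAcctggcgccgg
SLC3A2: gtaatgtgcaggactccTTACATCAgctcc

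The antioxidant core occurred in 5 of the 17 member regions (29.4%), against 13.3% of all regions in the table. It stood before starts of SLC3A2 (chr11:62881651-62881680, plus strand), SLC7A1, SLC7A7 (chr14:22819861-22819890, minus strand) and SLC1A5, and across that of SLC7A5 (chr16:87869491-87869520, minus strand). The matches of the shared heavy chain and of its light chains SLC7A7 and SLC7A5 are shown with the core in capitals.
SLC3A2: acgagggtgggTGACTCAGCgtcctccttc
SLC7A7: tcctctgggtcTGACCAGGCagtcccagct
SLC7A5: ggcggggttccTGACGCAGCtgcgggcggc

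SLC7A7 is the member whose counts ran against the other 9, so the 250 bases before the start that carries its match are printed in full (chr14:22819792-22820041, minus strand). None of its 3 listed start regions held the amino acid response core in these windows. The same was true of SLC7A5, SLC38A2 and SLC6A9, which had negative fold changes. SLC3A2, SLC7A1, SLC7A5 and SLC1A5, whose starts also carried the antioxidant core, had negative fold changes as well. The match of the antioxidant core is in capitals.
SLC7A7: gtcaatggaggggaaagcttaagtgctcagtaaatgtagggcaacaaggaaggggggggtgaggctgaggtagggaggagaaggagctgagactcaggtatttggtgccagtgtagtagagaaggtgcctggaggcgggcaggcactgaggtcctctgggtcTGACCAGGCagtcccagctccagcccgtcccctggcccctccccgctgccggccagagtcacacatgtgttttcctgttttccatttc
A match of letters is a description of the sequence, and binding was not measured.

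EDN1 averaged 363 ± 149 CPM (read counts relative to library size, scaled by the trimmed mean of M values, TMM) with overexpression and 1.45 ± 0.561 CPM in mock (mean ± SD, n = 4 each), so the libraries matched their labels. Total counts ran from 8571252 to 11686180 per EDN1 overexpression library and from 8409173 to 14932385 per mock library. All 10 liver markers examined passed the filter and summed to between 9469 and 12776 CPM in the EDN1 group and between 10610 and 13313 CPM in mock. Fibroblast markers summed to 4.19 to 7.70 CPM with EDN1 and 4.99 to 8.70 CPM in mock with LUM and THY1 at 0, and endothelial markers to at most 0.876 CPM with EDN1 and 0.562 CPM in mock with KDR and CLDN5 at 0. Of the 6 blood and immune markers, 3 passed the filter and CD3E was at 0, with sums of 383 to 768 CPM under EDN1 overexpression and 415 to 769 CPM in mock, for which LYZ was the leading gene. EDN1 3, EDN1 4 and mock 4 form what is called here the second library set, and the other 5 libraries the first set. Clustering of all tested genes separated them, and no label gives a batch. The fold change of each of the 10 members is therefore also given within each set, where the second set has a lone mock library.

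With EDN1 overexpression, all 8 members added as relatives had a negative log2 fold change, where 49.7% of all tested genes did. Their median log2 fold change was -0.35, and that of all tested genes was 0.00. Because these 8 were added with earlier results known, the count is a description only. Of 29 other tested amino acid carriers, 19 had a positive fold change and 10 a negative one. Of the 2 members selected on this contrast, SLC7A11 was negative and SLC7A7 positive, which makes 9 negative of 10. None of the 8 members added as relatives passed the test over all genes. The test was the quasi-likelihood one of edgeR, adjusted by Benjamini-Hochberg, in which each had an adjusted p of 0.9999 and which called 0.00795% of all genes, EDN1 alone. At an unadjusted p under 0.05 the count among these 8 was 0 by edgeR, 1 by DESeq2 (SLC7A5), 2 by limma voom (SLC7A5 and SLC6A9) and 2 by edgeR with a term for library set (SLC7A5 and SLC7A1). Of all tested genes 2.85% were under it by edgeR, 3.20% by DESeq2, 3.00% by limma voom and 4.18% by edgeR with the set term. After adjustment DESeq2 and limma voom also called 0 of the 8. The libraries are bulk RNA, in which fewer cells expressing a gene and less of its RNA per cell cannot be told apart.

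**Figure D1:**
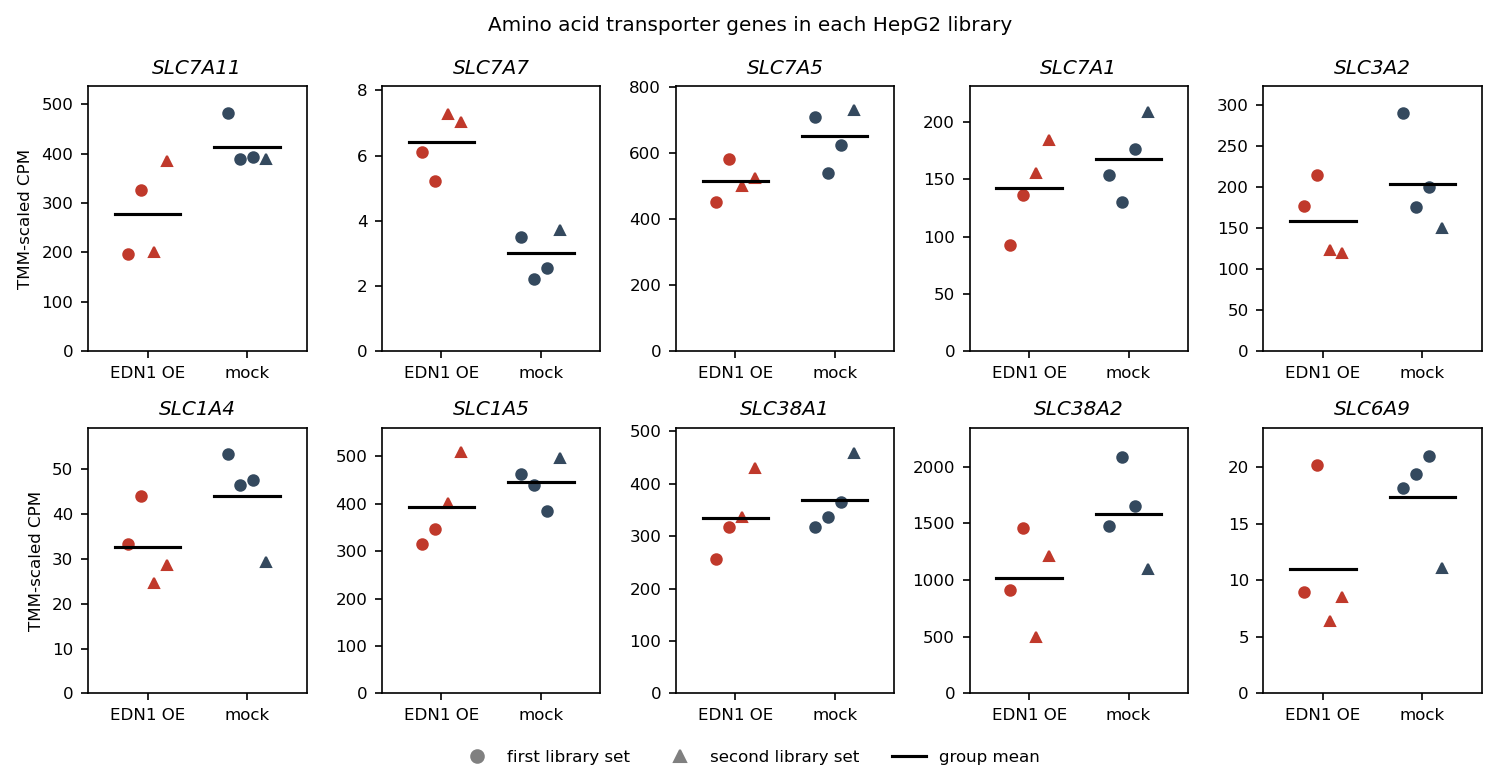
TMM-scaled CPM of each transporter gene (vertical axes, linear from 0) in the 4 EDN1 overexpression libraries (left, red) and the 4 mock libraries (right, dark), with circles for the first library set, triangles for the second and a line at the group mean. SLC7A7 lies between 5.22 and 7.28 CPM with EDN1 and between 2.22 and 3.73 CPM in mock, while the group means of the other 9 genes are lower with EDN1.

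The heavy chain gene SLC3A2 encodes the shared partner that carries light chains to the surface. It had 177, 214, 123 and 120.0 CPM in EDN1 overexpression libraries 1 to 4, against 290.5, 176, 200.4 and 150.2 CPM in mock libraries 1 to 4. The groups overlapped, and the lowest values, EDN1 3, EDN1 4 and mock 4, were all in the second library set. The log2 fold change was -0.37 (SE 0.25, 95% interval -0.92 to 0.19), and it was -0.18 in the first set alone and -0.32 in the second alone. It was -0.55 without EDN1 2 and -0.15 without mock 1. All 3 libraries of the second set lay below all 5 of the first for SLC3A2, with a log2 difference of -0.64 (SE 0.18) between the sets and the group kept as a term.

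SLC7A5 encodes LAT1, the light chain that takes up leucine and other large neutral amino acids. Its level was 453, 584, 499 and 524 CPM with EDN1 and 710.2, 541, 626 and 730 CPM in mock, which overlapped through EDN1 2 and mock 2. The log2 fold change was -0.34 (SE 0.15, 95% interval -0.68 to 0.00), the smallest SE among the members. Within the first set it was -0.27 and in the second alone -0.52. The 2 pseudogenes SLC7A5P1 and SLC7A5P2 together held between 0.0663% and 0.503% as many counts as SLC7A5 in any library. Reads from a pseudogene and its parent can be split between them in counting.

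SLC7A11 encodes xCT, the light chain that imports cystine in exchange for glutamate. It had 197, 327, 200.4 and 386 CPM in EDN1 libraries 1 to 4, against 483, 388, 394 and 388 CPM in mock libraries 1 to 4. The EDN1 1 and EDN1 3 values were far below the mock range, whereas EDN1 4 lay just under it, so the absence of overlap rested on a narrow gap. Under RLE or upper quartile scaling the groups overlapped, with EDN1 4 at 390.2 and 396 CPM and the lowest mock value at 389 and 388 CPM. The means were 277 ± 94.3 CPM with EDN1 and 413 ± 46.2 CPM in mock (SD, n = 4 each), a fold of 0.671 and a log2 fold change of -0.58. It was -0.69 in the first library set alone and -0.41 in the second alone, and ran from -0.78 without EDN1 4 to -0.44 without EDN1 1. The antisense gene SLC7A11-AS1 held between 0.827% and 2.63% as many counts as SLC7A11. Whether counting used strand is unknown here, so reads of the 2 cannot be told apart.

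SLC7A7 encodes y+LAT1, a light chain that exports arginine and lysine in exchange for neutral amino acids and is mutated in lysinuric protein intolerance. Its counts were 75, 46, 83 and 61 in EDN1 libraries 1 to 4 and 45, 18, 22 and 54 in mock libraries 1 to 4. Scaled, these were 6.10, 5.22, 7.28 and 7.04 CPM with EDN1, against 3.51, 2.22, 2.55 and 3.73 CPM in mock. Every EDN1 library lay above every mock library under each of the 4 scalings run. The means were 6.41 ± 0.944 CPM with EDN1 and 3.00 ± 0.731 CPM in mock (SD, n = 4 each), a fold of 2.10. The log2 fold change was 1.07, with 1.02 in the first set alone and 0.93 in the second alone, and lay between 0.96 and 1.20 with any 1 library left out. Counting error alone gives a coefficient of variation of 23.6% at the lowest of these counts, 18 in mock 2, and less in every other library. The coefficient of variation among the 4 mock libraries was 24.3%.

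Under TMM scaling SLC7A11 and SLC7A7 were thus the only members whose groups did not overlap, the first lower and the second higher with EDN1. Under RLE and upper quartile scaling SLC7A7 was the only one. Since both were picked for this contrast, the counts are set beside the background without reading anything from it: 0.668% of all tested genes had every EDN1 library below every mock library, and 1.38% had every EDN1 library above.

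**Figure D2:**
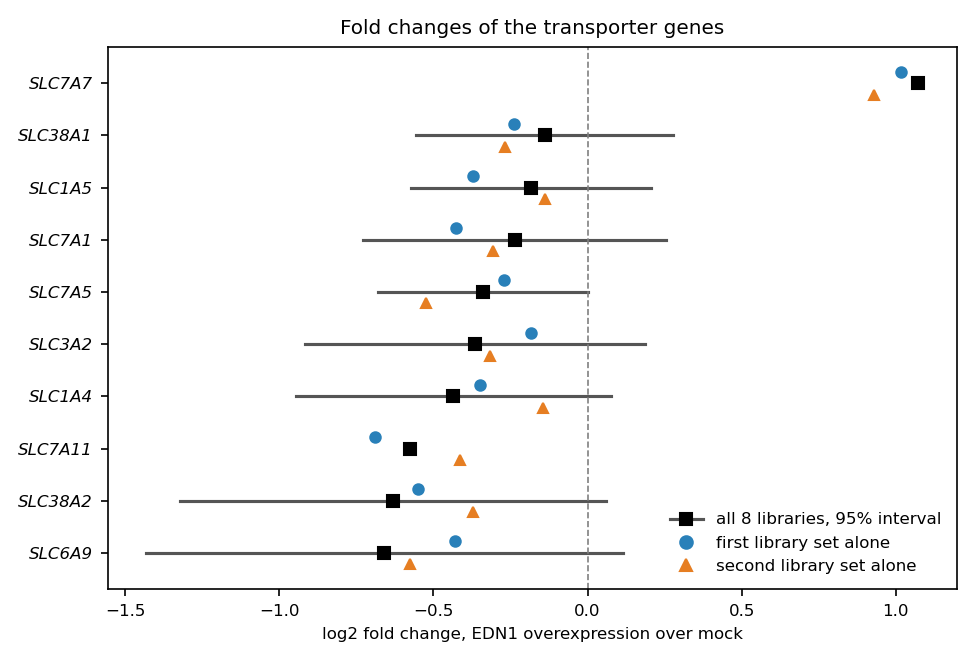
Log2 fold change of each transporter gene, EDN1 overexpression over mock (horizontal axis), over all 8 libraries (squares) with its 95% interval, and within the first (circles) and second (triangles) library set. SLC7A7 stands at 1.07 and the other 9 genes lie between -0.66 and -0.14. SLC7A7 and SLC7A11 are drawn without an interval because they were picked for this contrast.

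SLC7A1 encodes CAT1, which imports arginine and lysine without a heavy chain. It had 92.5, 136, 155 and 184 CPM with EDN1 and 154, 130.1, 177 and 208 CPM in mock, with 3 of the 4 EDN1 libraries inside the mock range. Its log2 fold change was -0.24 (SE 0.22, 95% interval -0.73 to 0.25), and it was -0.43 in the first set alone and -0.31 in the second alone. The value over all libraries rested in part on EDN1 1, the lowest of the 8, and was -0.08 without it and -0.39 without EDN1 4.

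SLC1A4 and SLC1A5 encode ASCT1 and ASCT2, exchangers of small neutral amino acids, of which ASCT2 is a main route for glutamine. SLC1A4 had 33.2, 44.0, 24.6 and 28.5 CPM with EDN1 and 53.3, 46.3, 47.5 and 29.2 CPM in mock. Mock 4 lay among the EDN1 libraries, and all 3 second-set libraries lay below all 5 of the first set, a log2 difference of -0.63 (SE 0.15) between the sets. The log2 fold change by group was -0.44 (SE 0.23, 95% interval -0.95 to 0.07), which was -0.35 in the first set alone, -0.14 in the second alone and -0.27 with the library set as a term. SLC1A5 had 315, 347, 401 and 509 CPM with EDN1 and 463, 439, 384 and 497 CPM in mock. EDN1 4 was the highest of the 8 libraries for this gene, and the groups overlapped. Its log2 fold change was -0.18 (SE 0.18, 95% interval -0.57 to 0.21), with -0.37 in the first set alone and -0.14 in the second alone, and it was -0.33 without EDN1 4 and -0.09 without EDN1 1.

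SLC38A1 and SLC38A2 encode the sodium-coupled carriers SNAT1 and SNAT2, which concentrate glutamine, alanine and serine in the cell. SLC38A2 is known to be raised when amino acids are withdrawn. It had 912, 1462, 494 and 1210.1 CPM with EDN1 and 1479, 2087, 1651 and 1097 CPM in mock. EDN1 3 stood lowest, well under the next library, EDN1 1, while EDN1 2 and EDN1 4 lay inside the mock range. The log2 fold change was -0.63 (SE 0.31, 95% interval -1.32 to 0.06). It was -0.55 in the first set alone and -0.37 in the second alone, and ran from -0.86 without EDN1 2 to -0.40 without EDN1 3. SLC38A1 had 257, 318, 338 and 429 CPM with EDN1 and 317, 337, 365 and 459 CPM in mock. Only EDN1 1 lay outside the mock range, and the log2 fold change of -0.14 (SE 0.19, 95% interval -0.56 to 0.28) was -0.24 in the first set alone and -0.27 in the second alone. It was -0.02 without mock 4 and -0.28 without EDN1 4.

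SLC6A9 encodes GlyT1, a sodium- and chloride-coupled glycine carrier. It had 8.95, 20.2, 6.40 and 8.55 CPM with EDN1, against 18.1, 19.4, 21.0 and 11.1 CPM in mock. EDN1 2 lay within the mock range and the other 3 EDN1 libraries below it, with mock 4 the lowest mock library. The log2 fold change was -0.66 (SE 0.35, 95% interval -1.43 to 0.11), the most negative among the members, and it was -0.43 in the first set alone and -0.58 in the second alone. Without EDN1 2 it was -1.12 and without EDN1 3 it was -0.47. Its coefficient of variation was 56.4% among EDN1 libraries, the highest of the 10 members there, and 25.2% among mock libraries.

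The negative fold changes did not come evenly from the 4 EDN1 libraries. In EDN1 1 and in EDN1 3, 8 of the 10 members lay below their own mean over the 8 libraries, against 4 in EDN1 2 and 4 in EDN1 4. The mock libraries had 2, 4, 2 and 5 members below their mean. On the log2 scale the median deviation of the members was -0.40 (EDN1 1), 0.13 (EDN1 2), -0.36 (EDN1 3) and 0.11 (EDN1 4). The mock medians ran from 0.05 to 0.30. EDN1 1 held the lowest of the 8 values for 5 members and EDN1 3 for 3. These counts and medians include SLC7A11 and SLC7A7, which were selected on the contrast. The matching shares of all tested genes were not computed. EDN1 1 and EDN1 3 belong to different library sets. Even so, the summed level of the 10 members was 2451, 3457, 2248 and 3405 CPM in EDN1 libraries 1 to 4 and 3971, 4165, 3867 and 3574 CPM in mock libraries 1 to 4, so that under TMM scaling each EDN1 library was below each mock library. The 8 members added as relatives summed to 2040.1 to 3126 CPM with EDN1 and 3182 to 3775 CPM in mock. With library totals alone the groups overlapped, the sum of the 10 being 3561 CPM in EDN1 2 and 3468 CPM in mock 4. SLC38A2 gave up to 42.3% of that sum with EDN1 and up to 50.1% in mock. Its share was 35.5% in EDN1 4 and 50.1% in mock 2. Without SLC38A2 the rest of the sum was higher in EDN1 4 than in mock 2, so the separation under TMM rested on this gene.

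**Figure D3:**
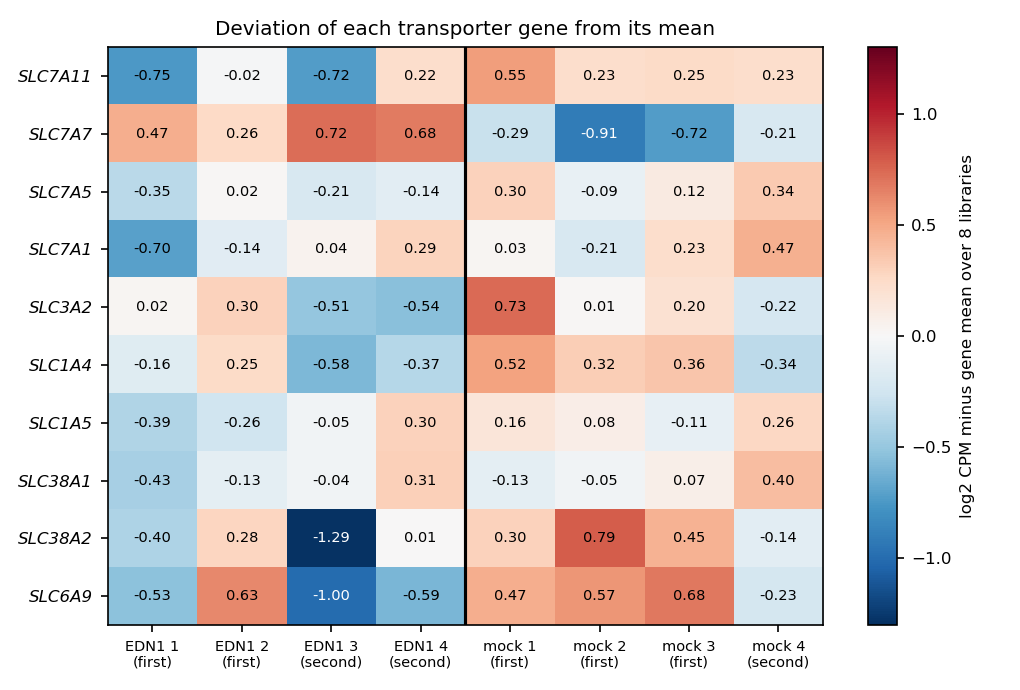
Deviation of each transporter gene from its own mean over the 8 libraries (log2 CPM, colour and printed value) in EDN1 overexpression libraries 1 to 4 (left of the line) and mock libraries 1 to 4 (right), with the library set in brackets. Blue cells gather in EDN1 1 and EDN1 3, where SLC38A2 reaches -1.29 in EDN1 3, while SLC7A7 is positive in all 4 EDN1 libraries.

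Ratios of counts within a library need no scaling and were used to compare carriers with each other. The ratio of LAT1 to its heavy chain, SLC7A5 to SLC3A2, was 2.56, 2.72, 4.06 and 4.36 with EDN1 and 2.44, 3.07, 3.12 and 4.86 in mock. Its log2 difference between the groups was 0.03 (SD of log2 ratios 0.39 with EDN1 and 0.41 in mock; exact two-sided permutation test over the 8 libraries, p = 0.971, where 0.0286 is the smallest possible). The difference turned to -0.12 in the first set alone and -0.21 in the second alone. The ratio followed the library sets instead, at 4.06 to 4.86 in the second set and 2.44 to 3.12 in the first. Its log2 value was on average 0.67 higher in the second set. The permutation did not keep the sets apart, and they hold EDN1 and mock libraries in unequal shares, so its p-value takes no account of the sets.

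The ratio of ASCT2 to ASCT1, SLC1A5 to SLC1A4, also split the libraries by set without overlap. It was 9.49, 7.87, 16.2 and 17.8 with EDN1 and 8.68, 9.46, 8.07 and 17.0 in mock. All 3 libraries of the second set had between 16.2 and 17.8, and the 5 of the first set between 7.87 and 9.49, while the log2 difference between EDN1 and mock was -0.01 in the first set alone and -0.00 in the second alone. The ratio of SNAT2 to SNAT1, SLC38A2 to SLC38A1, also followed the sets, at 1.46 to 2.82 in the second and 3.54 to 6.20 in the first. By group it was 3.54, 4.59, 1.46 and 2.82 with EDN1 and 4.66, 6.20, 4.52 and 2.39 in mock. These ratios were looked at after the sets had been formed from all genes of these libraries, and are given without a test between the sets.

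Members differed between the sets in both directions. The log2 difference of the second set from the first, with the group as a term, was -0.89 for SLC6A9, -0.64 for SLC3A2, -0.63 for SLC1A4 and -0.56 for SLC38A2. It was 0.51 for SLC7A1, 0.42 for SLC38A1, 0.37 for SLC7A7 and 0.36 for SLC1A5, and only 0.09 for SLC7A5 and 0.04 for SLC7A11. Among the members, 2 had all second-set libraries below the first set and 0 had all above, where 13.4% and 9.83% of all tested genes did so. What separates the sets was not tested.

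The ratio of the 2 carriers picked for opposite signs, SLC7A11 to SLC7A7, was 32.0, 61.9, 27.4 and 54.3 with EDN1 and 136, 170.03, 151 and 103 in mock. The geometric means were 41.4 with EDN1 and 138 in mock, a log2 difference of -1.73 that was -1.77 in the first set alone and -1.42 in the second alone. Set against the heavy chain, SLC7A7 had a ratio of 0.0347, 0.0246, 0.0596 and 0.0592 with EDN1, and 0.0122, 0.0130, 0.0130 and 0.0251 in mock, so the groups overlapped through EDN1 2 and mock 4. SLC7A11 to SLC3A2 was 1.11, 1.52, 1.63 and 3.22 with EDN1 and 1.66, 2.21, 1.97 and 2.59 in mock, with EDN1 4 the highest of the 8 libraries. These ratios repeat the contrast that picked the genes and carry no test.

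**Figure D4:**
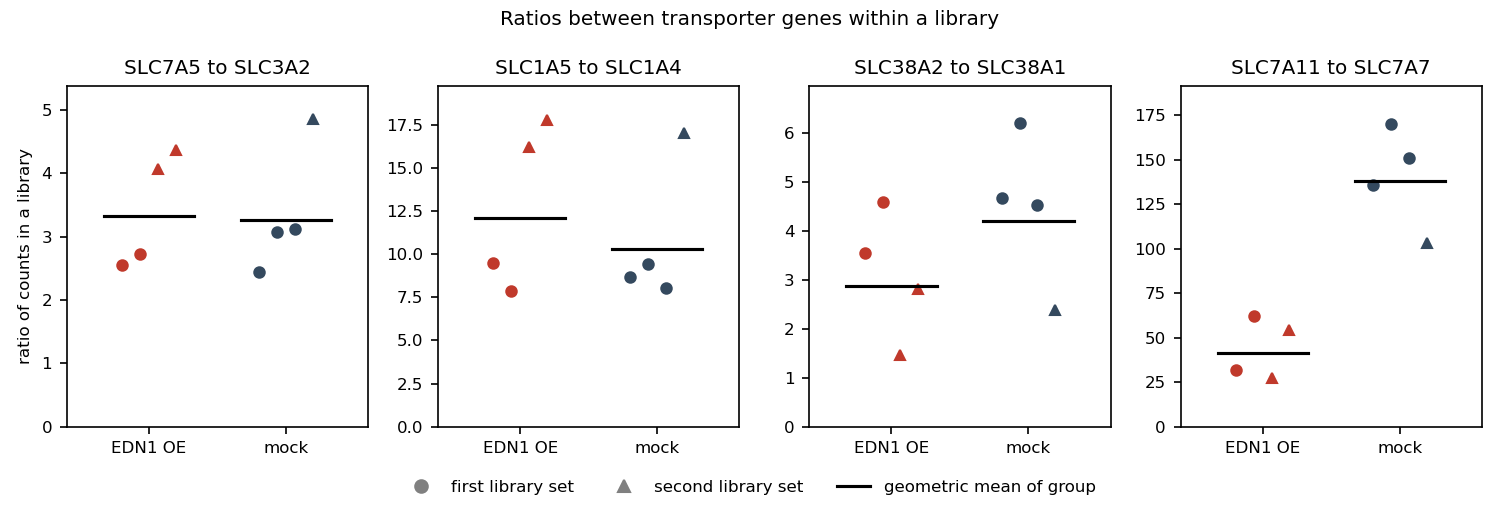
Ratios of counts between pairs of transporter genes within each library (vertical axes, linear from 0), for EDN1 overexpression (left, red) and mock (right, dark), with circles for the first library set, triangles for the second and a line at the geometric mean. SLC1A5 to SLC1A4 is 16.2 to 17.8 in the 3 second-set libraries of both groups and 7.87 to 9.49 in the other 5, whereas SLC7A11 to SLC7A7 lies between 27.4 and 61.9 with EDN1 and between 103 and 170.03 in mock.

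The kit reads tags near the end of each transcript, so counts are not expected to grow with length, but levels are compared here per kilobase of the deposited gene length. Per kilobase and over all 8 libraries, SLC38A2 led with 266 CPM, followed by SLC1A5 with 131 and SLC7A5 with 128, which lay closer together than their spread between libraries. SLC3A2 had 51.8 and SLC7A11 35.8 CPM per kilobase. SLC38A1 and SLC7A1 had 21.3 and 21.0, closer than their spread. SLC1A4 had 8.02, SLC6A9 3.74 and SLC7A7 2.01 CPM per kilobase, so the carrier with the positive fold change was the least abundant of the 10. The order depends on dividing by length, which may not suit such tags. In plain CPM over the 8 libraries SLC7A5 (583) stood above SLC1A5 (419), SLC38A1 (353) and SLC7A11 (345) stood above SLC3A2 (181), and SLC38A1, with a deposited length of 16548 bases, stood above SLC7A1 (155, length 7343 bases). The libraries of SLC38A1 and SLC7A1 did not overlap in plain CPM, at 257 to 459 and 92.5 to 208.

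For SLC7A11 the tested genes with the closest pattern over the 8 libraries, by root mean square difference of centred log2 CPM among 8696 genes with a mean of at least 10 CPM, were MYC (0.09), RNF44 (0.12), ERRFI1 (0.14), MTHFD2 (0.15) and KBTBD2 (0.16), against a median of 0.52 over these genes. MYC encodes a growth-promoting transcription factor and averaged 41.5 CPM with EDN1 and 59.1 CPM in mock. MTHFD2, a mitochondrial folate enzyme gene, averaged 314 CPM with EDN1 and 442 CPM in mock. For SLC7A7 the closest were CDH1 (0.21), RAB34 (0.23), TAGLN2 (0.24), EBP (0.25) and ZAK (0.26), with a median of 0.63 over the same kind of genes. CDH1, which encodes E-cadherin, averaged 127 CPM with EDN1 and 63.1 CPM in mock. The genes were picked for likeness to SLC7A11 or SLC7A7, which were selected on this contrast. Their group means therefore repeat that contrast, and the distances of the nearest genes lie below the median by construction. The libraries also share depth and library set across genes, so likeness of pattern is a description only.

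Among 52 other amino acid carriers, 29 passed the filter, of which 19 had a positive and 10 a negative fold change, with a median log2 fold change of 0.09. None passed the edgeR test after adjustment, and DESeq2 and limma voom also called 0. By edgeR 3 were at an unadjusted p under 0.05 (SLC7A8, SLC7A10 and SLC16A10), against 2.85% of all tested genes. SLC7A8 and SLC16A10 were thinly counted. SLC7A8 averaged 1.72 CPM with EDN1 and 0.925 CPM in mock, and SLC16A10 averaged 1.68 CPM with EDN1 and 0.837 CPM in mock. The most counted were SLC43A1, a neutral amino acid carrier related to the LAT family, SLC7A2, SLC6A8 and SLC43A2. SLC43A1 averaged 276 ± 34.7 CPM with EDN1 and 275 ± 30.3 CPM in mock (SD, n = 4 each), a log2 fold change of 0.01 (SE 0.15). SLC7A2, a cationic carrier like SLC7A1, averaged 76.3 ± 31.3 CPM with EDN1 and 96.4 ± 14.8 CPM in mock, with a log2 fold change of -0.34 (SE 0.26). For the creatine carrier gene SLC6A8 the log2 fold change was -0.21 (SE 0.18). For SLC43A2, another neutral amino acid carrier of the LAT type, it was 0.34 (SE 0.21). Of all tested genes, 1.38% had every EDN1 library above every mock library and 0.668% had every one below. SLC7A10 was the carrier of this list, of 29 tested, whose groups did not overlap. It averaged 10.5 ± 0.822 CPM under EDN1 overexpression and 6.97 ± 1.23 CPM in mock, a log2 fold change of 0.59 (SE 0.19). It was named after its values were seen. In the first library set alone its value was 0.61 and in the second 0.45, while SLC7A2 had -0.56 and -0.36, SLC6A8 -0.13 and -0.23, SLC43A2 0.20 and 0.18, and SLC43A1 -0.03 and 0.03.

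**Figure D5:**
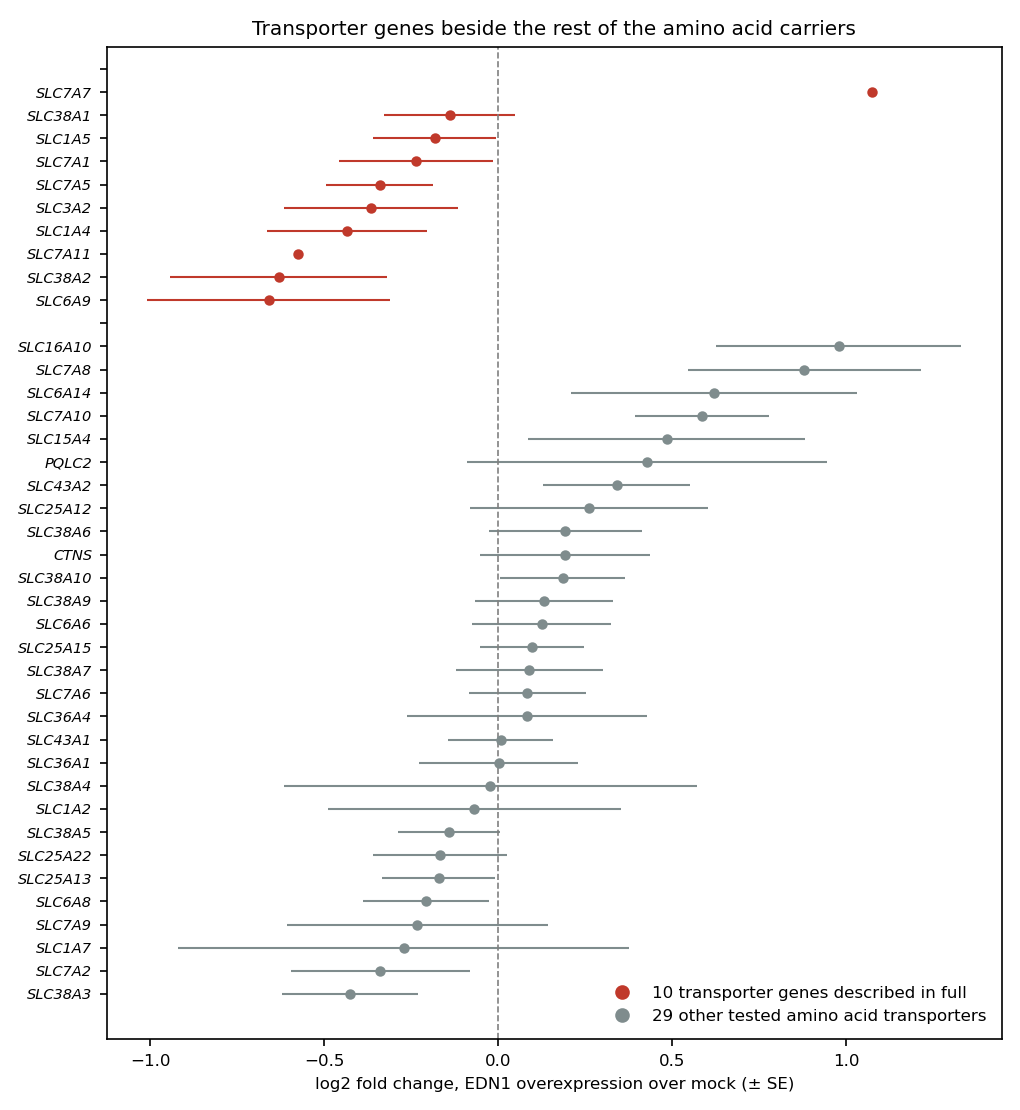
Log2 fold change, EDN1 overexpression over mock (horizontal axis, bars are SE), of the 10 transporter genes described in full (red, top) and the 29 other tested amino acid carriers (grey, below), each block sorted by value. Of the red points 9 are negative and of the grey ones 10. SLC7A7 and SLC7A11 are drawn without bars.

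Genes around these carriers were counted from lists, some of which share genes. The ATF4 and amino acid response list, without transporters, had negative fold changes in 25 of 30 tested genes, a median log2 fold change of -0.38 and 0 calls by edgeR, DESeq2 or limma voom, with 5 genes at an unadjusted p under 0.05 by edgeR (ATF3, PHGDH, MTHFD2, STC2 and VEGFA), or 2 with the library set as a term (PHGDH and STC2). The shares of all tested genes were 2.85% and 4.18% with the set term. ATF4 itself averaged 882 ± 155 CPM with EDN1 and 1091 ± 180.3 CPM in mock (SD, n = 4 each), a log2 fold change of -0.31 (SE 0.18). Log2 fold changes were -0.08 (SE 0.14) for the proline synthesis gene PYCR1, -0.11 (SE 0.15) for the alanine transaminase gene GPT2 and -0.59 (SE 0.21) for the secreted glycoprotein gene STC2. In the first and then the second library set alone, ATF4 had -0.24 and -0.14, STC2 -0.51 and -0.66, PYCR1 -0.14 and -0.05, and GPT2 -0.18 and 0.00.

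Genes of cystine and glutathione use had negative fold changes in 11 of 17 tested genes, with a median of -0.14 and 0 calls, 0 genes at an unadjusted p under 0.05 by edgeR, and 0 calls by DESeq2 or limma voom. The ferritin genes led in counts. FTL averaged 3797 ± 2009 CPM with EDN1 and 5017 ± 1855 CPM in mock, and FTH1 averaged 2005 ± 459 CPM with EDN1 and 1779 ± 360 CPM in mock (SD, n = 4 each). The log2 difference of FTL between the second library set and the first was -1.40. Log2 fold changes were -0.36 (SE 0.20) for the sulfiredoxin gene SRXN1 and -0.09 (SE 0.16) for the quinone reductase gene NQO1. For FTL the log2 fold change was -0.40 (SE 0.41) over all libraries but -0.10 in the first set alone and -0.16 in the second, and that of FTH1 was 0.17 (SE 0.21), with -0.01 and 0.09. In the same order SRXN1 had -0.41 and -0.24, and NQO1 -0.05 and -0.05.

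Genes that pass amino acid levels to mTORC1 had negative fold changes in 12 of 31 tested genes, with a median of 0.08, and those of arginine, urea cycle and glutamine metabolism in 11 of 16, with a median of -0.10. Both lists had 0 calls by edgeR, DESeq2 or limma voom. Each had 1 gene at an unadjusted p under 0.05 by edgeR, LAMTOR4 in the first and GPT in the second. Of all tested genes 2.85% were under it. GPT was thinly counted, at a mean of 1.90 CPM with EDN1 and 0.941 CPM in mock. In the first, SEC13 had a log2 fold change of 0.10 (SE 0.15), the leucine sensor gene SESN2 one of -0.47 (SE 0.36), LAMTOR1 one of 0.24 (SE 0.25) and the GTPase gene RRAGA one of 0.08 (SE 0.13). In the second, the transaminase gene GOT1 had one of -0.17 (SE 0.19), the asparagine synthetase gene ASNS one of -0.42 (SE 0.29) and the polyamine synthesis gene ODC1 one of -0.18 (SE 0.25), beside GPT2 above. Taking the first and then the second library set alone, SEC13 had -0.03 and 0.17, SESN2 -0.24 and -0.46, LAMTOR1 0.36 and 0.25, RRAGA -0.04 and 0.19, GOT1 -0.32 and -0.03, ASNS -0.68 and -0.27, and ODC1 -0.02 and -0.21.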

How the data were processed

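RNA was sequenced from 4 EDN1 overexpression and 4 mock HepG2 libraries, prepared, per the labels' protocols, with the QuantSeq kit of Lexogen. The deposited table holds the authors' raw read counts per gene and a gene length in bases. Bowtie2, edgeR and the build hg19 stand, without a role, in the submitters' processing notes. The counting tool, its strand setting and tool versions were not given in the sources used here.

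Groups came from the sample titles. Of 25737 rows, those of 288 repeated symbols were summed (MARCH1 and MARCH2 kept apart), giving 24462 genes. filterByExpr (minimum count 10) left 12577. Counts were scaled by TMM and tested by quasi-likelihood in edgeR 4.0.16 under R 4.3.3, adjusted by Benjamini-Hochberg over all tested genes at 0.05. The SE is the fold change over the square root of F. The procedure was tested on simulated counts. Alternatives were DESeq2 1.42.0, limma 3.58.1 voom, RLE, upper quartile or no scaling, no filter or a minimum count of 50, rows as deposited, the replicate number as a block, a term for library set, either set by itself, and leaving out each library. Deviations use log2 CPM with a prior count of 2, and ratios counts plus 0.5. Every pair of libraries within a group differed by more than sampling noise (chi-square per degree of freedom 14.3 to 86.5). Library sets came from Ward clustering of all tested genes into 2. Members, lists and library sets were chosen with earlier results of these data known. The genes named are the members, EDN1, up to 4 of each list with the highest mean CPM and the 5 genes nearest in pattern to SLC7A11 and SLC7A7. SLC7A11-AS1, the SLC7A5 pseudogenes, SLC7A10 and the genes named at an unadjusted p were added after their values were seen.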

Additional observations from a re-analysis of the deposited data

Results flagged for a closer look

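Of 32 groups of 4 values examined (10 transporter genes and 6 ratios, in EDN1 overexpression and in mock), 3 held a library far from the other 3. Chance flags about 1 in 20 such groups. SLC7A11 was 483 CPM in mock 1, while the other mock libraries lay between 388 and 394 CPM. The SLC7A7 to SLC3A2 ratio was 0.0251 in mock 4, against 0.0122 to 0.0130 in the other mock libraries. The SLC1A5 to SLC1A4 ratio was 17.0 in mock 4, against 8.07 to 9.46 in the other mock libraries. Mock 4 is the lone mock library of the second set.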

How the results depend on the processing

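Over the 20 alternatives, 9 of the 10 transporter genes kept a negative fold change and SLC7A7 a positive one, and in all 200 comparisons of a member with its value over all libraries the direction and the side of the threshold held or, for SLC7A11 and SLC7A7, the value moved by less than the spread between libraries. The number of genes called was 1 in each alternative other than DESeq2, which called 3 (EDN1 and TMSB4X higher, LGI1 lower with EDN1 overexpression). With 1 library left out at a time it was 1 to 1. The count of members with a negative fold change was 9 to 9. The SLC7A5 to SLC3A2 difference was -0.12 in the first library set alone, -0.21 in the second, and -0.11 to 0.22 with 1 library left out. The cause was not tested. With the replicate number as a block the difference was 0.03 (exact sign-flip test, p = 0.875). With 4 pairs that test could not give a p under 0.05. The block changed no call, with 1 gene called. Same-numbered libraries deviated together with r of 0.48, 0.15, -0.15 and 0.53. The closest mock library was mock 1 for EDN1 1, mock 3 for EDN1 2, and mock 4 for EDN1 3 and EDN1 4. The library sets enter these values, so whether the numbers pair the libraries cannot be told. SLC7A7, at 18 to 83 counts per library, is limited by depth, and the other members had at least 73.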
